A study of Mus musculus with 6 samples.

Results

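The Hox cluster genes were followed in primary articular chondrocytes, the cells of joint cartilage, either unstimulated or given semaphorin 4D. Semaphorin 4D (Sema4D) is a membrane-bound or shed ligand of plexin-B receptors. Members were all rows of the expression table whose symbol is Hox followed by a cluster letter from a to d and a number, which gave 39 genes of 24346 symbols: 11 in HoxA, 10 in HoxB, 9 in HoxC and 9 in HoxD. The cells came from cartilage of ICR mice at postnatal day 4, with 3 control libraries (no Sema4D) and 3 Sema4D libraries. No allele or other agent is named for either group, and the labels name no joint, limb, dose or duration of stimulation. Nor do they say where the 3 libraries of a group come from, so each p-value measures library-to-library spread alone, and this may be only technical.

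Hox genes encode homeodomain transcription factors and lie in 4 clusters, in the order of their paralog number. Genes of the same number in different clusters are related copies (paralogs). In the embryo, low numbers act in anterior and high numbers in posterior parts of the body axis, and in the limb paralogs 9 and 10 pattern the upper segment, paralog 11 the middle segment and paralog 13 the hand or foot. Many adult mesenchymal cells keep a Hox pattern that records where in the body they came from. Hox proteins bind DNA together with TALE homeodomain cofactors of the Pbx, Meis and Pknox families, and the clusters are held silent by Polycomb complexes and kept active by Trithorax complexes.

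Expression was read as FPKM, fragments per kilobase of transcript scaled to library size. Estimated depth, read from the spacing of values among weakly expressed genes, was 13400000 to 17750000 fragments, and a lone fragment on a kilobase of transcript made 0.0563 to 0.0746 FPKM. All 8 chondrocyte markers checked, such as Col2a1 and Acan, were expressed, and all 8 were lower with Sema4D. Beside this and the marker counts below, 22.2% of all tested genes were lower and 24.5% higher (limma adjusted p under 0.05). Their summed level was 13843 to 14970 FPKM in control and 11204 to 12107 FPKM in Sema4D libraries. Summed markers of fibroblasts and synovium (6 genes) were at 83.2 to 86.1 FPKM in control and 77.9 to 81.0 FPKM in Sema4D libraries, with 1 higher and 4 lower of 5 tested. This sum hides opposite changes. Mean Pdgfra rose from 22.8 to 42.3 FPKM, while the means of Dpt, Clec3b, Dpp4 and Thy1 fell by 50.3%, 50.4%, 60.1% and 10.5%. Macrophage markers (6 genes) summed to 22.9 to 30.4 FPKM and 19.6 to 22.0 FPKM, most of it Lyz2. Of 3 tested, Lyz2 and Tyrobp fell and Cd68 did not pass, while Adgre1, under the filter, was at 0.203 ± 0.108 FPKM in control and 0.673 ± 0.0979 FPKM in Sema4D libraries (SD, n = 3), without overlap. The 5 osteoblast markers summed to 4.11 to 4.92 FPKM and 3.27 to 3.39 FPKM. The 5 muscle, 4 neural and glial and 4 endothelial markers summed to at most 4.98, 2.43 and 0.307 FPKM in any library, and the muscle stem cell gene Pax7 was at 0 in all 6. The part of these marker shifts in the Hox results below was not tested. In bulk RNA, fewer cells of a type and less RNA per cell cannot be told apart.

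The chondrocytes expressed HoxA, HoxC and HoxD genes and almost no HoxB. The highest value of any HoxB gene in any library was 0.161 FPKM, for Hoxb9 in control replicate 2, and Hoxb9 was at 0.0669 to 0.161 FPKM over the 6 libraries. Hoxb1, Hoxb4, Hoxb5 and Hoxb7 were listed at 0 in all 6 libraries. On their longest annotated transcripts, 3 fragments, the limit that a count of 0 allows, would give 0.0654 to 0.0866 FPKM for Hoxb5 and 0.155 to 0.205 FPKM for Hoxb7, for counting error only, and a listed 0 can also be a failed estimate. The other 5 HoxB genes were at 0 in 2 to 5 of the 6 libraries. Of all Hox FPKM in control libraries, HoxA held 61.4% ± 0.824 (SD, n = 3), HoxC 26.9% ± 0.518, HoxD 11.6% ± 0.383 and HoxB 0.113% ± 0.0375.

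In each active cluster the level was highest at paralogs 8 to 11, at Hoxa10 in HoxA, Hoxc10 in HoxC and Hoxd8 in HoxD. In HoxA, control means were 0.441 FPKM for Hoxa2, 1.603 for Hoxa3, 0.381 for Hoxa4, 2.29 for Hoxa5, 3.86 for Hoxa6 and 3.02 for Hoxa7, then 15.0 for Hoxa9, 58.0 for Hoxa10 and 26.3 for Hoxa11, and 1.46 for Hoxa13. In HoxC the peak stood on a single gene, Hoxc10 (34.0 FPKM), between Hoxc9 (3.08 FPKM) and Hoxc11 (1.41 FPKM), with a lesser rise at Hoxc6 (6.70 FPKM). In HoxD the highest were Hoxd8 (8.19 FPKM) and Hoxd9 (7.18 FPKM), followed by Hoxd10 (3.10 FPKM), while Hoxd11 (0.317 FPKM) and Hoxd13 (0.118 FPKM) were low and Hoxd1 and Hoxd12 were listed at 0 in all 6 libraries. Summed over clusters, the 3 paralogs numbered 10 made 51.7% ± 0.631 of Hox FPKM in control, those numbered 11 15.2% ± 0.421 and those numbered 9 13.8% ± 0.688. FPKM is scaled to length, so these levels can be set side by side, save where a member shares exon sequence with another gene, as described below. The control values of neighbours in the order Hoxa10, Hoxc10, Hoxa11, Hoxa9, Hoxd8 and Hoxd9 did not overlap, whereas from Hoxd10 downwards each gene overlapped the next.

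**Figure D1:**
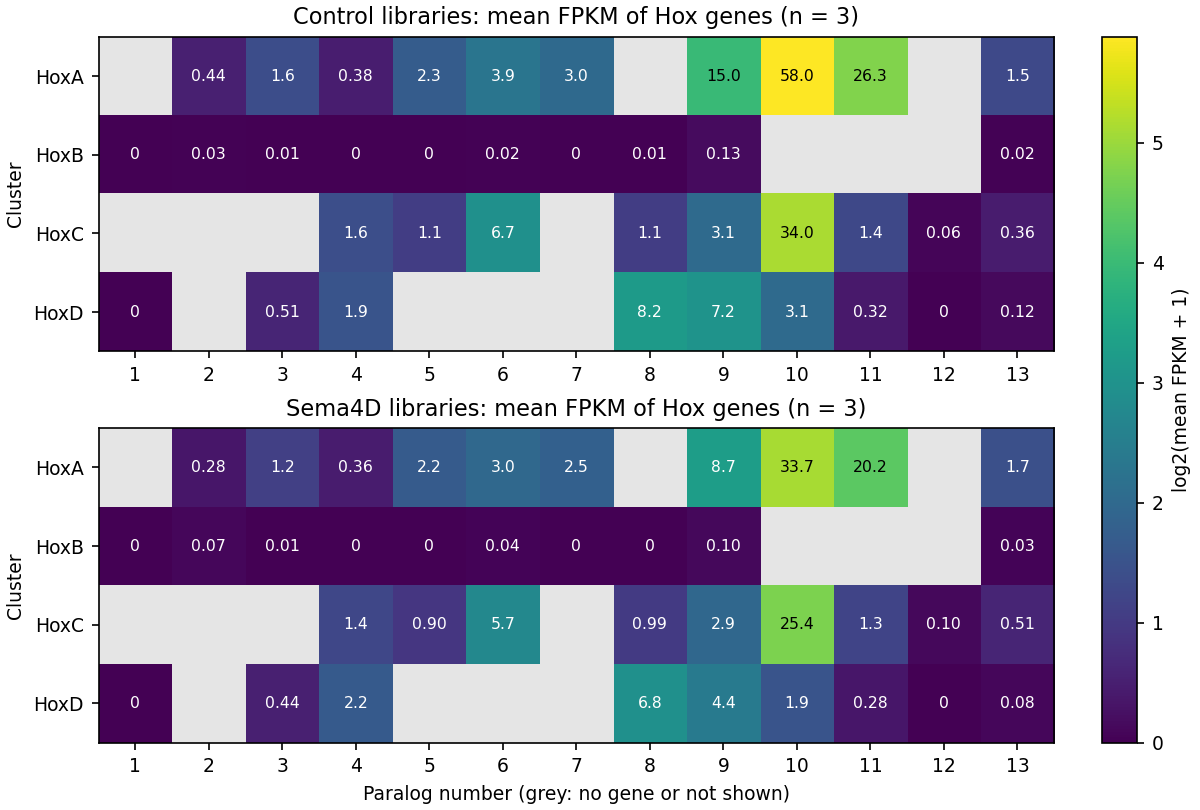
Mean FPKM of Hox genes by cluster (rows) and paralog number (columns) in control and Sema4D libraries (n = 3 each), coloured by log2(mean FPKM + 1), with the mean printed in each cell and grey where no gene exists or none is shown. The HoxB row is near 0 throughout, and the highest cells are Hoxa10, Hoxc10 and Hoxa11 in both groups.

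The comparison asked which Hox genes differ in chondrocytes stimulated with Sema4D. Tested were the 18 members whose 6 libraries averaged 1 FPKM or more: 8 in HoxA, 6 in HoxC, 4 in HoxD and 0 in HoxB. The other 21 members were under that filter, 6 of them at 0 in every library. Hoxc5, at a mean of 0.997 FPKM, fell just outside it and Hoxc8, at 1.05 FPKM, just inside. With Sema4D 7 of the 18 fell (limma adjusted p under 0.05 over 11603 tested genes), where 22.2% of all tested genes fell, and 0 rose, where 24.5% of all tested genes rose and 46.7% changed in either direction. At an unadjusted p under 0.05 limma counted 9 lower and 0 higher, where 25.5% of all tested genes were lower and 28% higher. The median log2 change of FPKM + 1 was -0.23 over the 18 members and 0.0062 over all tested genes. Control and Sema4D values did not overlap for 8 of the 18 members, each lower with Sema4D, where 27% of all tested genes were lower and 29.6% higher without overlap.

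The falls lay at paralogs 8 to 10 of HoxD, 9 to 11 of HoxA and 10 of HoxC. Of 8 tested members numbered 9 to 11, 6 fell, against 1 of 6 numbered 5 to 8 (Hoxd8), 0 of 3 numbered 1 to 4 and 0 of 1 numbered 13. These are counts of calls, not sizes of fall. The means of uncalled Hoxa3 and Hoxa6 were 27.3% and 23.4% lower, against 22.9% and 17.6% for called Hoxa11 and Hoxd8. Those of uncalled Hoxa13 and Hoxd4 were 15.5% and 15.0% higher. Sorted by level, 6 of the 7 members with a mean of at least 5 FPKM fell, where 22.6% of all tested genes of that level did, and 1 of the 11 members at 1 to 5 FPKM, where 21.3% did. After upper quartile scaling 9 members were lower and 0 higher, where 31.8% of all tested genes were lower and 17.9% higher. After quantile normalization 8 were lower and 0 higher, where 29.4% of all tested genes were lower and 18.7% higher. Over all tested genes the share of calls that were lower was 47.6%, 64.0% after upper quartile scaling and 61.2% after quantile normalization.

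Hoxa10, the most abundant Hox transcript here (chromosome 6, 52231197 to 52240854, mm10), was at 58.0, 59.0 and 57.1 FPKM in control replicates 1, 2 and 3 and at 34.4, 32.7 and 34.1 FPKM in Sema4D replicates 1, 2 and 3. Its Sema4D libraries lay far below all control libraries, and the mean fell by 41.9% (log2 change -0.77, SE 0.032, limma adjusted p = 3.48e-07). An estimated 1197 to 2406 fragments per library stood behind it. Its 3′ neighbour Hoxa9 (52223097 to 52227370), a partner of paralog 10 in the upper limb segment, was at 16.3, 14.1 and 14.5 FPKM in control and 8.68, 8.85 and 8.65 FPKM in Sema4D libraries. The fall was of the same size, 41.7% (-0.71, SE 0.056, adjusted p = 1.52e-05), and the groups were well apart.

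Hoxa11 (52242105 to 52245810), needed for the middle limb segment, was at 26.98, 27.06 and 24.78 FPKM in control and 19.6, 20.4 and 20.8 FPKM in Sema4D libraries, a lesser fall of 22.9% (-0.36, SE 0.045, adjusted p = 0.000254). Its groups did not overlap. Hoxa13 (52258853 to 52260880), the gene of the hand and foot at the 5′ end of the cluster, was at 1.14, 1.40 and 1.84 FPKM in control and 1.46, 1.57 and 2.03 FPKM in Sema4D libraries. These values overlapped, and the change was 0.13 (95% interval -0.16 to 0.42, adjusted p = 0.424).

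The sequences before start sites of Hoxa10, Hoxa9 and Hoxd10, 3 of the 4 members that fell by the largest shares, and of Hoxa13, which did not pass, are shown to let their base make-up be compared. The fourth, Hoxd9, is not printed because its stretch overlaps annotated exons in GENCODE M21. They are from RefSeq on GRCm38.p6, the assembly of mm10, run 5′ to 3′ on the gene's strand over the 250 bases before the start, and capitals mark each CG dinucleotide. Hoxa10 has a far and a near RefSeq start, the near one inside the gene, and the Hoxd10 start also lies inside the span given for that gene below. Gene-level FPKM does not separate start sites.
Hoxa10 far start, chr6:52240855-52241104, minus strand: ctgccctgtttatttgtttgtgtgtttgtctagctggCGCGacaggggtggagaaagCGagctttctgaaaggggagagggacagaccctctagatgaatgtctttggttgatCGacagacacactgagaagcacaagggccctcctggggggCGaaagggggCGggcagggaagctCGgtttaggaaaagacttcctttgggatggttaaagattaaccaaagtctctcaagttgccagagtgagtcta
Hoxa10 near start, chr6:52234940-52235189, minus strand: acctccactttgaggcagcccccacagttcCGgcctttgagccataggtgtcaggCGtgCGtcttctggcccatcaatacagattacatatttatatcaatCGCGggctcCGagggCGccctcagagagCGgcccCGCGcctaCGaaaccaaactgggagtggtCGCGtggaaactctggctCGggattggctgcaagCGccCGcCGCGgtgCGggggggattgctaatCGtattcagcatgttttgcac
Hoxa9, chr6:52227371-52227620, minus strand: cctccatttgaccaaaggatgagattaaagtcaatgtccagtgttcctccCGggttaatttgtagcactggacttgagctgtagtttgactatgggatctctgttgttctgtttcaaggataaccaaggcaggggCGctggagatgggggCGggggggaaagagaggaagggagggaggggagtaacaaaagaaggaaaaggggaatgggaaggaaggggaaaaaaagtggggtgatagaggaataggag
Hoxd10, chr2:74691641-74691890, plus strand: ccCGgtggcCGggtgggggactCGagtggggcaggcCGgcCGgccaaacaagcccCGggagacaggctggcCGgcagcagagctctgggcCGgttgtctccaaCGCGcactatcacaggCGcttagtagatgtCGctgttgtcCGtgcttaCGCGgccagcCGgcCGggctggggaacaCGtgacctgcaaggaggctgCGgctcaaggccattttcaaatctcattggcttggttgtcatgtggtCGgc
Hoxa13, chr6:52260881-52261130, minus strand: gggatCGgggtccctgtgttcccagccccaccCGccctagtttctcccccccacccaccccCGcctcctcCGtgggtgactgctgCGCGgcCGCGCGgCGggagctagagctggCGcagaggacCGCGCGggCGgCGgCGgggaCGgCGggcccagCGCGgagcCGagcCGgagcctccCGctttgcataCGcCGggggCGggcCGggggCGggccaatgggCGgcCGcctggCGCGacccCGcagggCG
The stretches before Hoxa9 and the far Hoxa10 start hold 3 and 7 CG dinucleotides, those before Hoxd10 and the near Hoxa10 start 20 each, and that before Hoxa13 35. The Hoxd9 window of 300 bases (250 before to 50 after the start) holds 20. Such RefSeq windows were matched for 22 of the 39 members, 24 windows in all. Their median CG count was 14.5, against 7 over all 32851 windows of the table. It was 15 in the 7 windows of genes that fell and 20 in the 7 windows of tested genes that did not pass. The former cover 6 genes, with both Hoxa10 windows and none for Hoxc10, and the latter cover 7 of the 11 genes that did not pass. On either strand, TATAAA was in 4 of the 24 windows (16.7%) and in 13.6% of all windows, and CCAAT in 15 (62.5%) and in 37.4%. The NF-kappaB consensus was in 1 window, that of Hoxa13 (4.17%), and in 8.46% of all windows. A match or its absence is a description of these letters only.

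In HoxC, Hoxc10 (chromosome 15, 102966796 to 102971898), a paralog of Hoxa10 active in hindlimb and lumbar levels, was at 34.3, 34.0 and 33.6 FPKM in control and 26.2, 22.9 and 27.3 FPKM in Sema4D libraries. Control libraries were tightly grouped, and each was above each Sema4D library. The fall was 25.2% (-0.41, SE 0.060, limma adjusted p = 0.000692). The other 5 tested HoxC genes did not pass. Hoxc6, a thoracic-level gene, came nearest, at 7.23, 6.09 and 6.77 FPKM in control and 5.47, 6.43 and 5.24 FPKM in Sema4D libraries (-0.20, adjusted p = 0.0793). It passed after quantile normalization (adjusted p = 0.0418), after upper quartile scaling (0.0267), without control replicate 2 (0.04996) and without Sema4D replicate 2 (0.0235), and its adjusted p spanned 0.0235 to 0.225 across alternatives. Hoxc9 stood at 2.94, 3.26 and 3.04 FPKM in control and 2.69, 3.08 and 2.96 FPKM in Sema4D libraries, with a 95% interval of the log2 change from -0.22 to 0.092. Hoxc4 (-0.14), Hoxc8 (-0.10) and Hoxc11 (-0.041) had wider intervals, that of Hoxc11 reaching from -0.48 to 0.40 on an estimated 23 to 61 fragments per library.

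In HoxD, the members that fell are the neighbours Hoxd10, Hoxd9 and Hoxd8. Hoxd9 (chromosome 2, 74697763 to 74700208) was at 7.48, 6.90 and 7.15 FPKM in control and 4.26, 4.29 and 4.59 FPKM in Sema4D libraries, a fall of 39.0% (-0.60, SE 0.053, limma adjusted p = 3.03e-05) with the groups apart. Hoxd10 (74684273 to 74695106) was at 2.39, 3.63 and 3.27 FPKM in control and 1.93, 1.78 and 1.92 FPKM in Sema4D libraries. Control replicate 1 was the lowest of its group but above all Sema4D libraries, and the fall was 39.3% (-0.50, SE 0.113, adjusted p = 0.00711). Hoxd8 (74704615 to 74707933) was at 7.80, 8.09 and 8.69 FPKM in control and 6.18, 6.70 and 7.38 FPKM in Sema4D libraries, a fall of 17.6% (-0.25, SE 0.067, adjusted p = 0.0167). That call was lost without control replicate 3 (adjusted p = 0.0649) and without Sema4D replicate 1 (0.0570), and its adjusted p spanned 0.00467 to 0.0649 across alternatives. Hoxd4, an anterior gene, was at 2.30, 1.51 and 1.85 FPKM in control and 2.32, 1.95 and 2.24 FPKM in Sema4D libraries (0.14, 95% interval -0.11 to 0.39, adjusted p = 0.313).

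**Figure D2:**
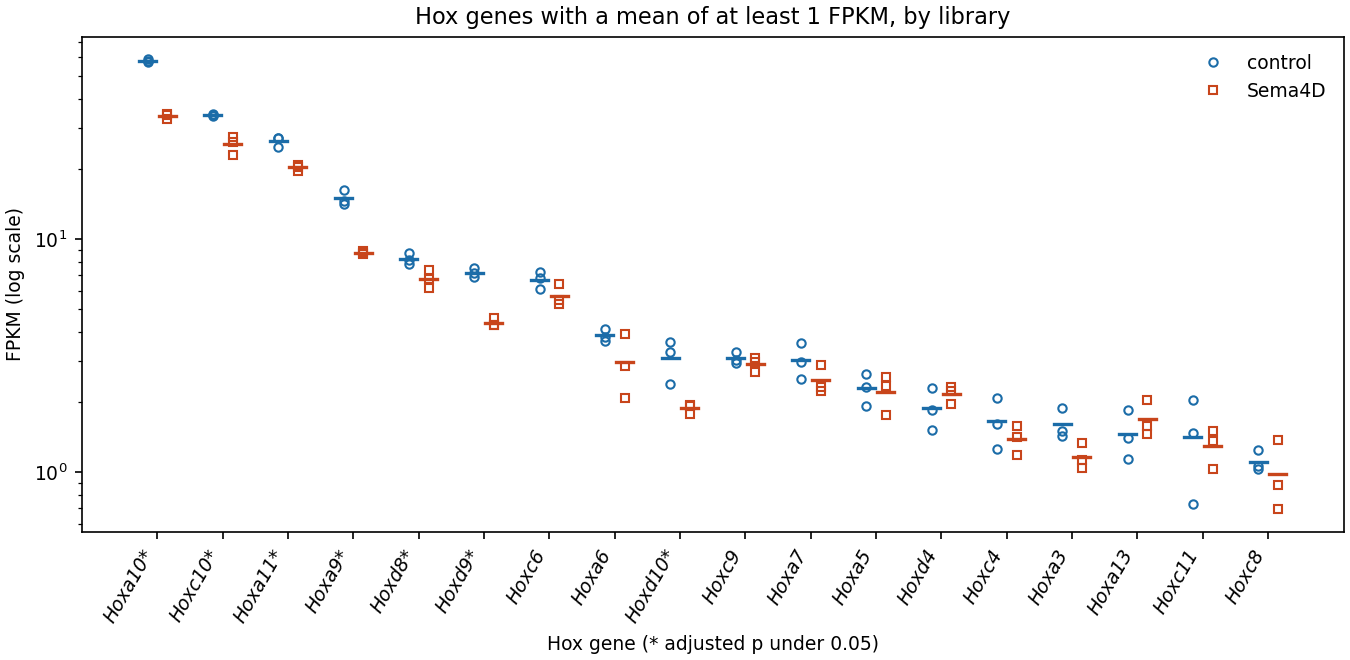
FPKM on a log axis of the 18 tested Hox genes, ordered by control level, with control libraries as circles, Sema4D libraries as squares and a bar at each mean (n = 3 per group), and an asterisk on genes with a limma adjusted p under 0.05. The groups are apart for the 4 most abundant genes and for Hoxd8, Hoxd9 and Hoxd10, and for Hoxa3, which did not pass the threshold.

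Among the anterior and middle HoxA genes, Hoxa3 was at 1.43, 1.495 and 1.89 FPKM in control and 1.33, 1.12 and 1.04 FPKM in Sema4D libraries. Its groups did not overlap, yet it missed the threshold (-0.26, limma adjusted p = 0.0560). It passed after upper quartile scaling (0.0304), without a variance trend in limma (0.0349) and without Sema4D replicate 1 (0.0473), and its adjusted p spanned 0.0304 to 0.151 across alternatives. Hoxa6 varied most within the Sema4D group, at 2.86, 2.09 and 3.93 FPKM against 3.66, 4.12 and 3.80 FPKM in control (-0.32, adjusted p = 0.113). Without Sema4D replicate 3 it passed (-0.49, adjusted p = 0.00903), and its adjusted p spanned 0.00903 to 0.299 across alternatives. Hoxa7 (-0.20, 95% interval -0.46 to 0.054) and Hoxa5 (-0.037, -0.31 to 0.23) overlapped between groups. An estimated 23 to 108 fragments per library stood behind these 4 genes, and each of their intervals includes the change of Hoxd8 (-0.25).

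**Figure D3:**
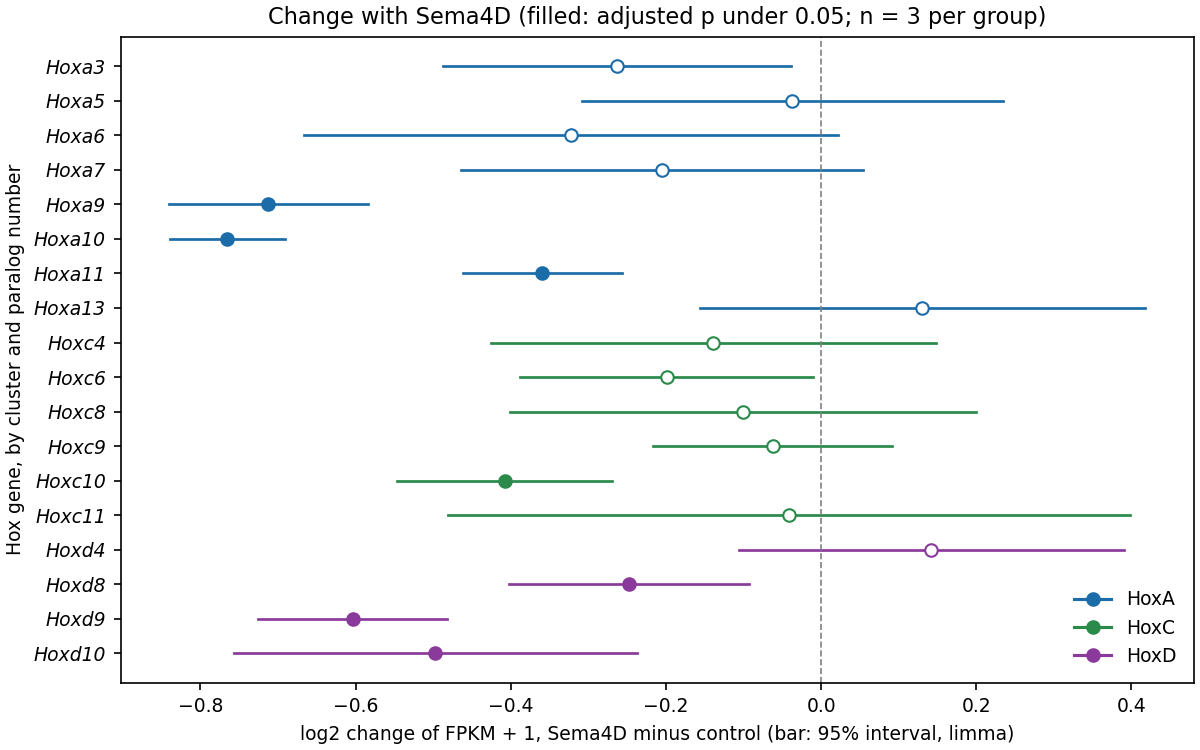
The log2 change of FPKM + 1, Sema4D minus control, of the 18 tested Hox genes with 95% limma intervals, grouped by cluster and ordered by paralog number, with filled points for an adjusted p under 0.05. Hoxa9, Hoxa10, Hoxd9 and Hoxd10 have the lowest values (-0.71, -0.77, -0.60 and -0.50), and Hoxa13 and Hoxd4 lie above 0 with intervals that include it.

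Paralogs were set against each other by the ratio of their FPKM within each library, over 10 pairs of tested genes of the same number. For 3 pairs the ratio did not overlap between groups. The Hoxa10 to Hoxc10 ratio was 1.69 to 1.73 in control and 1.249 to 1.431 in Sema4D libraries. The ratio of Hoxa9 to Hoxc9 was 4.31 to 5.53 in control and 2.87 to 3.23 in Sema4D libraries, and that of Hoxc9 to Hoxd9 0.394 to 0.473 and 0.631 to 0.719. In each of these 3 pairs the HoxC copy was higher relative to its HoxA or HoxD paralog in Sema4D libraries. The ratios of these 3 pairs restate that Hoxa10, Hoxa9 and Hoxd9 changed more than Hoxc10 and Hoxc9. In the pairs of Hoxc4, Hoxc6, Hoxc8 and Hoxc11, and for Hoxc10 to Hoxd10, the ratio overlapped between groups. The mean Hoxc4 to Hoxd4 ratio was 0.913 in control and 0.649 in Sema4D libraries, so there the HoxC copy was relatively lower. In the other overlapping pairs with a HoxC gene, the mean ratio put the HoxC copy relatively higher. The two-sided exact permutation p was 0.1 for each of the 3 pairs without overlap (0.333 adjusted over the 10 pairs). As 0.1 is the smallest p that 3 libraries against 3 can give, no pair could have passed 0.05. Hoxa9 to Hoxd9, a pair without a HoxC gene, also overlapped between groups (2.03 to 2.18 and 1.88 to 2.06, exact permutation p = 0.5).

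Summed over each cluster, HoxA FPKM was 113.7, 114.1 and 110.7 in control and 73.8, 72.0 and 77.0 in Sema4D libraries, a ratio of means of 0.658. HoxC was at 49.4, 48.7 and 50.3 FPKM in control and 39.0, 38.1 and 40.7 FPKM in Sema4D libraries (ratio 0.793), and HoxD at 20.8, 21.1 and 22.0 FPKM and 15.7, 15.2 and 16.9 FPKM, a mean 25.0% lower. In each of these clusters the Sema4D libraries were below the control libraries. Most of each control sum lay in members called lower, given above. Hoxc10 alone was at a mean of 34.0 of the 49.5 FPKM of HoxC in control and 25.4 of 39.2 FPKM in Sema4D libraries. The sums of these clusters thus restate the falls of those members and do not show a fall of the others. HoxB sums overlapped, at 0.138 to 0.277 FPKM in control and 0.185 to 0.310 FPKM in Sema4D libraries. Over all 39 genes the sum was 183.8 ± 0.560 FPKM in control and 129.7 ± 4.82 FPKM in Sema4D libraries (mean ± SD, n = 3), 29.4% lower. No p is given for these sums, which are scores over chosen members. The share of HoxA in the total was 61.4% ± 0.824 in control and 57.2% ± 0.155 in Sema4D libraries, and that of HoxC 26.9% ± 0.518 and 30.3% ± 0.0909.

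Noncoding genes inside the clusters and coding genes beside them were read from the RefSeq positions. Of 17 noncoding genes inside the clusters with a row in the table, 3 were tested, all in HoxA, and Hoxa11os fell. This antisense RNA (52245243 to 52249769) was at 17.3, 17.4 and 17.0 FPKM in control and 14.9, 14.5 and 15.6 FPKM in Sema4D libraries (-0.19, SE 0.039, limma adjusted p = 0.00482). Its exons overlap those of Hoxa11 on the other strand, and without a stated strand setting their reads cannot be told apart. Hotairm1 (6.53 ± 0.707 FPKM in control and 6.27 ± 1.21 with Sema4D, n = 3) and Mira (5.45 ± 0.449 and 5.17 ± 1.22) did not pass. Hotair, the HoxC noncoding RNA, was at 0.234 ± 0.0618 and 0.211 ± 0.0480 FPKM. In all, 10 members share exon sequence with a gene on the other strand and 9 with a gene on the same strand in GENCODE M21, Hoxd3 with Hoxd4 and Hoxc5 with Hoxc10 among the latter, so the authors' counting could split their values. Of the genes that fell, Hoxa10, Hoxd8 and Hoxd9 share none, Hoxa11 shares with Hoxa11os, Hoxa9 with Mir196b, Hoxc10 with Hoxc5 and Hoxd10 with Gm28309.

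Of the 3 nearest coding genes on each side of each cluster, 18 were tested, and 5 rose and 2 fell, where 24.5% of all tested genes rose and 22.2% fell. On the low-coordinate side of HoxA, Snx10, which encodes an endosomal sorting nexin, rose from 4.39 ± 0.244 to 9.83 ± 1.05 FPKM (log2 change 1.004, limma adjusted p = 1.12e-05) and Skap2 from 17.7 ± 0.634 to 21.7 ± 0.665 FPKM (0.28). The heterochromatin protein gene Cbx3 on the same side fell from 83.6 ± 3.56 to 71.7 ± 3.33 FPKM (-0.22, adjusted p = 0.00388). Smug1, beside HoxC, rose from 4.57 ± 0.0490 to 5.66 ± 0.282 FPKM (0.26). The rises of Snx11 (0.17) and Atf7 (0.18) and the fall of Atp5g2 (-0.085) were small and were each lost under several alternatives. The homeobox genes next to the clusters, Evx1 and Evx2, were at means of 0.0307 and 0 FPKM in control. Beside HoxD, Lnp (-0.038) and Mtx2 (0.11) did not pass.

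Cofactors and regulators were read from lists chosen for their known role, with earlier results of these data known. Of all tested genes 24.5% rose and 22.2% fell, with 31.8% lower after upper quartile scaling and 29.4% after quantile normalization, and the counts below stand beside these shares. Of 8 tested TALE cofactor genes, 3 fell and 1 rose (median -0.15), and 6 fell after upper quartile scaling and 5 after quantile normalization. Pbx3 fell from 7.63 ± 0.476 to 4.38 ± 0.1304 FPKM (-0.68, limma adjusted p = 2.21e-05) and Pknox2 from 4.59 ± 0.561 to 2.29 ± 0.410 FPKM (-0.77, adjusted p = 0.000613). Meis3 rose from 7.53 ± 0.324 to 10.5 ± 0.420 FPKM (0.43, adjusted p = 0.000151). Of 10 tested genes of the retinoic acid pathway, which induces Hox genes in the embryo, 7 fell and 0 rose by limma, also 0 at an unadjusted p under 0.05 (median -0.26). With no filter on low values 1 gene of this list rose. Aldh1a2, under the filter and described further below, was at a mean of 0.00966 FPKM in control and 1.55 FPKM in Sema4D libraries. Crabp2, which carries retinoic acid to its receptors, fell from 25.9 ± 1.29 to 10.7 ± 0.430 FPKM (-1.20, adjusted p = 2.66e-07). The retinaldehyde reductase gene Dhrs3 fell from 91.8 ± 1.24 to 73.9 ± 0.905 FPKM (-0.31) and the receptor gene Rxra from 28.2 ± 0.230 to 22.3 ± 0.323 FPKM (-0.33).

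Of 11 tested genes of Polycomb repressive complex 2, which lays the silencing mark on Hox clusters, 5 rose and 1 fell (median -0.077). After upper quartile scaling 3 rose and 5 fell, after quantile normalization 3 rose and 4 fell, without Sema4D replicate 2 the rises were 3, and without control replicate 2 or Sema4D replicate 1 the falls were 2. Mtf2, an accessory subunit, rose from 4.10 ± 0.437 to 10.6 ± 0.226 FPKM (1.19, limma adjusted p = 2.07e-06) and the core subunit gene Eed from 11.8 ± 0.0797 to 15.0 ± 1.08 FPKM (0.32), while Rbbp7 fell (-0.17). Of 19 genes of Polycomb repressive complex 1, 2 rose, 2 fell and 15 did not pass, and 8 fell after upper quartile scaling and 5 after quantile normalization. Pcgf5 rose from 2.73 ± 0.243 to 6.09 ± 0.407 FPKM (0.93) and Phc2 from 34.2 ± 1.20 to 46.9 ± 0.955 FPKM (0.45), and Cbx6 fell from 22.4 ± 0.492 to 15.9 ± 0.574 FPKM (-0.47). Of 11 Trithorax and H3K27 demethylase genes, Wdr5 rose (0.20), Kdm6a fell (-0.27) and 9 did not pass, with 2 falls after either scaling or without control replicate 3. Kmt2c was at 4.61 ± 0.236 and 4.04 ± 0.168 FPKM (-0.16, adjusted p = 0.0571).

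**Figure D4:**
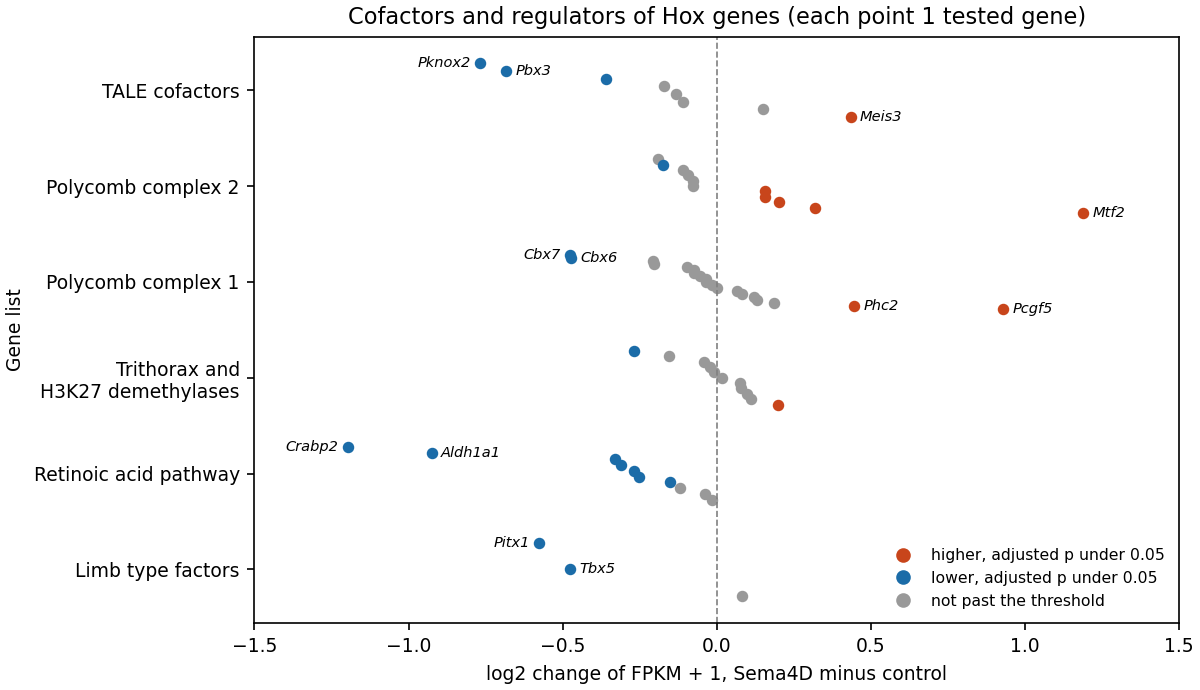
The log2 change of FPKM + 1, Sema4D minus control, of each tested gene in 6 lists of cofactors, regulators and limb type factors (n = 3 per group), coloured by its limma call, with genes past 0.4 in either direction named. The tested genes of the retinoic acid list lie below 0, with Crabp2 lowest (-1.20), while the Polycomb complex 2 list runs from -0.19 to 1.19. Aldh1a2, under the filter and higher with Sema4D, is not shown.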

How the data were processed

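Values for 6 libraries (3 control, 3 Sema4D) were deposited by the authors as FPKM, on mm10. Per the submitters' processing notes the tools were Cufflinks 2.2.1, TopHat2 2.0.13, SAMtools 0.1.19 and Bowtie2 2.2.3, with no role named. Annotation, strand setting and scaling between libraries are not given in the sources used here. FPKM are not counts, and no count test was run. FPKM were taken as deposited, transformed to log2(FPKM + 1), which understates changes of low genes, and 11603 genes averaging 1 FPKM or more were tested in limma 3.58.1 (R 4.3.3, two-sided, variance trend, no replicate block, Benjamini-Hochberg over all tested genes, threshold 0.05). The fit was tested on simulated data. Percent falls are ratios of mean FPKM. Depth was estimated with Python 3.11.15 from 1681 genes with 1 transcript over 2000 nucleotides (GENCODE M21, assumed mean fragment of 200), where low values came within 0.15 of a whole fragment in 81.0% to 86.6% of cases, too few to recover counts. Positions are RefSeq on GRCm38.p6, and all 39 members matched.

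The members and gene lists were chosen with earlier results of these data known. Named were the tested members, per list the 3 genes of lowest p, and cluster neighbours. The paralog ratios were added after the values were seen. Replicate numbers were not used as pairs. The values of 1 member and of some genes of the lists are not reported here.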

Additional observations from a re-analysis of the deposited data

How the results depend on the processing

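Over the alternatives run, the count of members higher was 0 in each, and the count lower was 6 to 9. Hoxa9, Hoxa10, Hoxa11, Hoxc10, Hoxd9 and Hoxd10 passed, lower, in each alternative in which they were tested. With a replicate block 7 members were lower and 0 higher, and no member's call changed. Deviations of same-numbered libraries from their group means correlated across genes at r of 0.14, -0.081 and -0.054 for replicates 1, 2 and 3. Control replicate 2 correlated best with Sema4D replicate 3 (0.136) and control replicate 3 with Sema4D replicate 2 (0.103). The labels do not tie these libraries to each other.

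Leaving out 1 library gave log2 changes of -0.31 to -0.19 for Hoxd8, -0.32 to -0.19 for Hoxa3, -0.49 to -0.16 for Hoxa6 and -0.27 to -0.15 for Hoxc6. It turned the sign of uncalled Hoxa5 (-0.12 to 0.071, 0.038 without control replicate 2), Hoxc8 (-0.24 to 0.01, highest 0.0063) and Hoxc11 (-0.26 to 0.14, 0.045 without Sema4D replicate 1), of Hotairm1 (-0.19 to 0.027, 0.00099 without control replicate 1) and of Mira (-0.22 to 0.071). The cause was not tested.

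Upper quartile scaling gave -0.31 for Hoxa3 and -0.26 for Hoxc6, quantile normalization -0.24 for Hoxc6, and limma without a trend -0.26 for Hoxa3. The HoxA ratio was 0.631 after quantile normalization and 0.625 after upper quartile scaling, and the HoxC ratio 0.753 after the latter. List counts moved as follows. TALE cofactors had 2 higher without a trend, and 5 and 6 lower after quantile and upper quartile scaling. Polycomb complex 2 had 3 higher and 4 or 5 lower after these scalings, and 3 to 5 higher and 1 to 2 lower with 1 library left out. Polycomb complex 1 had 5 and 8 lower after them, and 1 higher and 1 lower with a mean of at least 5 FPKM. Trithorax had 2 lower after either scaling or without a trend (1 to 2 with 1 library left out), and the retinoic acid list 1 higher with no filter. Other regulators had 1 lower after upper quartile scaling, and 1 to 2 higher and 0 to 1 lower with 1 library left out. Limb type factors had 1 lower with a mean of at least 5 FPKM and 0 to 1 higher with 1 library left out.

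Tested members at 1 to 5 FPKM rest on an estimated 23 to 122 fragments per library, and the effect of this depth on their calls was not tested.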

Other observations

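Transcription factor genes that mark limb type were read beside the Hox genes, since the labels name no joint. Pitx1 and Tbx4, which act in the hindlimb, were at 90.8 ± 3.65 and 18.9 ± 0.200 FPKM in control libraries (SD, n = 3), and Tbx5, which acts in the forelimb, at 4.58 ± 0.450 FPKM. Pitx1 fell with Sema4D to 60.6 ± 3.93 FPKM (log2 change -0.58, limma adjusted p = 3.08e-05) and Tbx5 to 3.01 ± 0.108 FPKM (-0.47, adjusted p = 0.000799). Tbx4 was at 20.0 ± 1.11 FPKM with Sema4D (0.081, adjusted p = 0.176).

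Aldh1a2, which encodes the main embryonic enzyme of retinoic acid synthesis and was under the filter, was singled out after its values were seen. Control replicates 1 and 2 were listed at 0 and control replicate 3 at 0.0290 FPKM, against 1.41, 1.77 and 1.47 FPKM with Sema4D, opposite in direction to the 7 called genes of its list. Its family member Aldh1a1, 1 of those 7, fell from 3.36 ± 0.449 to 1.29 ± 0.169 FPKM (-0.92, limma adjusted p = 8.61e-05). Aldh1a3, under the filter, was at means of 0.141 FPKM in control and 0.135 FPKM in Sema4D libraries, with overlap. In a list of other Hox cluster regulators, Cdx2 and Cdx4 were listed at 0 in all 6 libraries, Cdx1 was at a control mean of 0.0573 FPKM and Gdf11 (-0.22), Gmnn (0.16) and Ctcf (0.030) did not pass.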
